A study of Mus musculus with 6 samples.

Results

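The E2F and retinoblastoma family was followed through 10 genes in a count table of 24062 gene symbols, namely the E2F transcription factor genes E2f1, E2f2, E2f3, E2f4, E2f7 and E2f8, the pocket protein genes Rb1, Rbl1 and Rbl2, and Tfdp1, which encodes the E2F dimer partner DP1. The genes were taken by symbol, all 10 were listed, and all 10 passed the filter on low counts. Expression was compared between 3 libraries of Ints11 KO mice, which carry Mx1-Cre and floxed Ints11, and 3 libraries of WT littermates. All were C57BL/6 mice, each library came from 1 mouse, and bone marrow cells sorted for Kit were taken 4 days after poly(I:C), which induces the Mx1 promoter and is itself an interferon trigger. The time after poly(I:C) is given for both genotypes, and the Cre status of the WT littermates and the age of the mice are not stated. Mx1-Cre acts in blood cells of all lineages and in other interferon-responsive tissues, and some cells can escape deletion. The comparison addresses what loss of INTS11, the endonuclease of the Integrator complex, does to the transcripts of blood stem and progenitor cells.

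E2F factors bind DNA as dimers with a DP partner and switch on the genes that carry a cell from G1 into S phase. Pocket proteins bind E2F factors and silence these genes until cyclin-dependent kinases phosphorylate the pocket proteins. RB1 mainly holds the activators E2F1, E2F2 and E2F3, whereas p107 (Rbl1) and p130 (Rbl2) hold E2F4 and E2F5 and join the MuvB core to form the DREAM repressor. E2F7 and E2F8 are atypical repressors that bind DNA without a DP partner and shut the same genes down later in the cycle. In mouse marrow, loss of all the pocket proteins expands stem and progenitor cells.

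Several E2F family genes are themselves under E2F control, so promoter windows that hold E2F-type words are printed here for E2f7, which had the largest positive log2 change, for E2f2, Rbl1 and Tfdp1, and for Mcm7, a target gene that fell. The windows run from 250 bases before to 50 bases after a gene start (RefSeq, GRCm38.p6) and are written 5′ to 3′ on the strand of the gene. Capitals mark every E2F-type word of 7 letters, the first being TTCCCGC, the next TTCGCGC, another TTGCCGC and the last TTGGCGC, searched on both strands.
E2f7 (chr10:110745189-110745488, forward strand): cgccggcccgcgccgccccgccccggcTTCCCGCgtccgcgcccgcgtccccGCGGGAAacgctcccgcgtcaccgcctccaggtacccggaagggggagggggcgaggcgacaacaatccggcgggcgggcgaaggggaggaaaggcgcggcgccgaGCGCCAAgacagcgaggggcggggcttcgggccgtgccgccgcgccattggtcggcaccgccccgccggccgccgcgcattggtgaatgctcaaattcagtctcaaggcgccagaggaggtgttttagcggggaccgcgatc
E2f2 (chr4:136172024-136172323, forward strand): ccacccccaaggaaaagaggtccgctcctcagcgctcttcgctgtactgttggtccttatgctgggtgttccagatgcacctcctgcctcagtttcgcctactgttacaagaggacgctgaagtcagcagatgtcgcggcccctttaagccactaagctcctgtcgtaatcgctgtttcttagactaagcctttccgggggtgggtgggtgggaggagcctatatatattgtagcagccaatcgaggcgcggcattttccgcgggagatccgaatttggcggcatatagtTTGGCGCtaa
Rbl1 (chr2:157204485-157204784, reverse strand): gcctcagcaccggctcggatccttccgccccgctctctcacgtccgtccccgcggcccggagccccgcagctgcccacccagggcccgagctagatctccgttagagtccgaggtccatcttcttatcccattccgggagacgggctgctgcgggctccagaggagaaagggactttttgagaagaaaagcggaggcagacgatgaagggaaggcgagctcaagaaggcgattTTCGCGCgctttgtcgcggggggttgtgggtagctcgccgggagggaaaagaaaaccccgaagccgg
Tfdp1 (chr8:13338501-13338800, forward strand): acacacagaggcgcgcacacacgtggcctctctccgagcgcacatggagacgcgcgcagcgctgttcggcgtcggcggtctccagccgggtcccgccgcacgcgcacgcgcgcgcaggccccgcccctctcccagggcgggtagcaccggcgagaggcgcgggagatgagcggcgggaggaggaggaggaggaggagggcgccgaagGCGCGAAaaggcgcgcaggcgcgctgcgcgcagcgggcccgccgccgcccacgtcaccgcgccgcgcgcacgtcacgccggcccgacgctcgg
Mcm7 (chr5:138171834-138172133, reverse strand): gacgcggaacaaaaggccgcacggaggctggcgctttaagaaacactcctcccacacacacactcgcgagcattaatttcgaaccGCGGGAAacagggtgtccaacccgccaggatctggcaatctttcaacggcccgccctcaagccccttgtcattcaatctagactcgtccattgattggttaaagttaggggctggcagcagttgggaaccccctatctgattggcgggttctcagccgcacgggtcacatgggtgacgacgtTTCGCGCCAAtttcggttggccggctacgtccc
The E2f7 window held 3 such words, the Mcm7 window 3, of which the last 2 overlap, and the E2f2, Rbl1 and Tfdp1 windows 1 each. The RefSeq start of Mcm7 lies 539 bases inside the GENCODE gene and that of E2f2 at -120 bases from the GENCODE gene start, so the word in the E2f2 window stands upstream of the GENCODE gene.

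Total counts lay between 127011537 and 142983542 in KO libraries and between 124074531 and 166860739 in WT libraries. Ints11, listed as Cpsf3l, had 64.3, 58.3 and 60.2 CPM in KO libraries, against 73.8, 92.3 and 78.9 CPM in WT libraries (CPM, with library totals scaled by TMM). The genotypes did not overlap, as for 53.9% of all genes tested. Its log2 change was -0.42 (adjusted p = 0.0174, edgeR, Benjamini-Hochberg), a call lost under 3 of 13 alternative fits. Reads over exons that were not deleted also count for Ints11, so its level checks the labels only in part. Kit had 228 ± 9.28 CPM in KO and 211 ± 11.5 CPM in WT libraries (SD, n = 3 each). The libraries also held RNA of maturing granulocytes: 14 of 15 mature neutrophil markers were listed, 11 lay above WT in every KO library, 6 rose and 0 fell, and their summed level was 42833 to 56273 CPM in KO and 11170.5 to 35549 CPM in WT libraries. Over these markers, KO libraries had a mean of 8.90 to 9.26 log2 CPM. The WT libraries were spread about evenly below, with 8.63 in WT_341, 7.80 in WT_344 and 6.998 in WT_343. In contrast, 5 of 6 granulocyte-macrophage progenitor genes fell and 1 rose (8413 to 10299 CPM in KO and 16359 to 22133 CPM in WT, summed). All 7 mast cell, basophil and eosinophil markers rose (3186 to 3762 CPM in KO and 1295 to 1776 CPM in WT), as did 3 of 6 megakaryocyte markers (93.6 to 137 CPM in KO and 37.8 to 59.2 CPM in WT). Calls in the other marker lists were 4 higher of 8 haematopoietic progenitor genes, 1 lower of 10 erythroid, 0 of 9 B cell and lymphoid, 3 higher and 1 lower of 7 T and NK cell, 1 higher and 3 lower of 7 monocyte and macrophage, and 2 higher of 6 stromal genes. No listed marker was at 0 in all libraries. In bulk RNA, fewer cells of a type and less RNA per cell cannot be told apart.

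Of the 10 family genes, 2 fell in KO libraries and 0 rose at the 0.05 threshold (quasi-likelihood F test of edgeR, Benjamini-Hochberg p over all 15742 genes tested). These p-values set the difference between genotypes against the spread between mice, with the variance estimate of each gene drawn toward that of other genes. Of all genes tested, 35.9% were called, 16.0% higher and 19.9% lower, so the family was not called more often than genes in general. At an unadjusted p of 0.05 the count was 1 higher and 2 lower, and DESeq2 and limma-voom each called 1 higher and 2 lower. The split turned with scaling: upper-quartile factors gave 2 higher and 1 lower, and so did library totals alone. The KO and WT libraries did not overlap for 5 of the 10 genes, 2 above and 3 below WT, against 53.9% of all genes tested. The median log2 change of the family was 0.04, and that of all genes tested was 0.01. The family count depended on single libraries: 5 genes were called without WT_341, and 1 without KO_339, KO_340, KO_345 or WT_344.

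**Figure D1:**
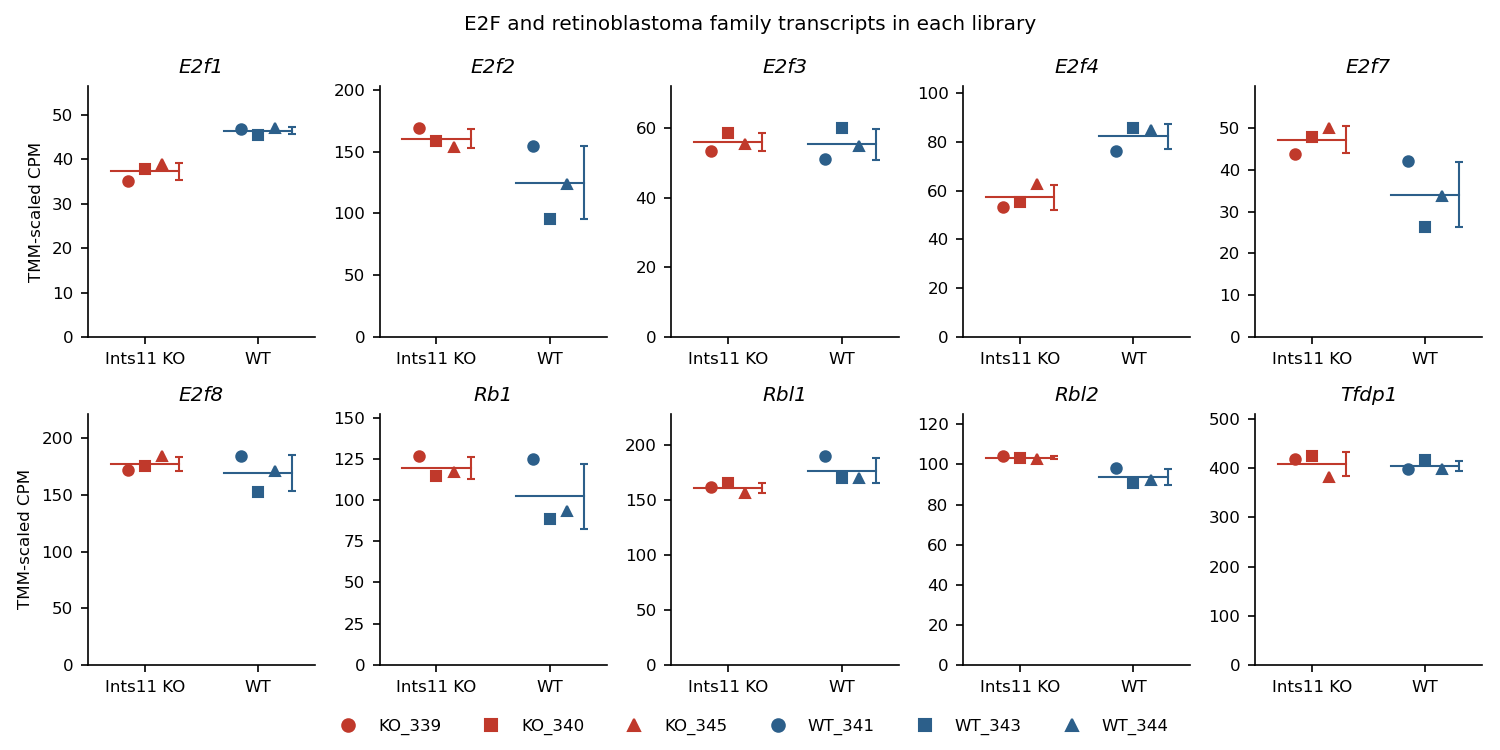
TMM-scaled CPM (vertical axes, from 0) of the 10 family genes in the 3 Ints11 KO and the 3 WT libraries, 1 panel per gene. Points are libraries, horizontal lines are means and bars are the SD of 3 libraries: E2f1 and E2f4 lie lower in every KO library, and WT_341 lies beside the KO libraries for E2f2, E2f7 and Rb1.

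Among the activators, E2f1, the founding member and a driver of S phase entry, fell. It had 35.02, 37.8 and 38.9 CPM in KO libraries, against 46.8, 45.4 and 47.0 CPM in WT libraries. Every KO library was lower than every WT library, and the means were 37.2 ± 1.99 CPM in KO and 46.4 ± 0.869 CPM in WT libraries (SD, n = 3 each). The log2 change was -0.32 ± 0.08 (SE), an expression of 0.802 times the WT level, with an adjusted p of 0.0199 (edgeR, Benjamini-Hochberg). The call was lost without KO_339, KO_340, KO_345 or WT_344 (adjusted p = 0.111, 0.0773, 0.0580 and 0.0634) and with upper-quartile scaling or library totals only (log2 changes -0.18 and -0.22). E2f1 spans chr2:154559407-154569892 on the reverse strand (GRCm38).

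E2f2, another activator that is abundant in erythroid and other blood precursors, did not pass. It had 169, 159 and 153 CPM in KO libraries, against 155, 95.8 and 124.1 CPM in WT libraries. WT_341 lay within the KO range and the other WT libraries below it. The log2 change was 0.36 ± 0.16 (adjusted p = 0.110, edgeR), with a 95% interval of -0.01 to 0.74, and without WT_341 it was 0.54 and passed (adjusted p = 0.00720). E2f3, the activator often linked to proliferation, had 53.5, 58.7 and 55.5 CPM in KO libraries, against 51.1, 60.0 and 54.8 CPM in WT libraries. The genotypes overlapped fully, and the 95% interval of its log2 change ran from -0.18 to 0.22. E2f2 lies at chr4:136172394-136196057 (forward strand) and E2f3 at chr13:29906575-29986063 (reverse strand).

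E2f4 showed the largest drop of the family. It encodes the E2F that acts mostly as a repressor with p107 and p130, and its loss in mice impairs fetal red cell formation. It had 53.5, 55.3 and 62.8 CPM in KO libraries, against 76.4, 85.7 and 84.8 CPM in WT libraries. The genotypes were well separated, with means of 57.2 ± 4.94 CPM in KO and 82.3 ± 5.11 CPM in WT libraries (SD, n = 3 each). The log2 change was -0.52 ± 0.09 (SE), or 0.695 times the WT level, with an adjusted p of 0.00693 (edgeR, Benjamini-Hochberg). The call held under 12 of 13 alternatives, with each library left out and with each scaling, and the exception was the neutrophil covariate given further on. E2f4 lies at chr8:105297663-105305370 on the forward strand.

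Of the atypical repressor genes, neither passed the test between genotypes. E2f7, which is also a known target of p53, had 43.7, 47.7 and 49.98 CPM in KO libraries, against 42.0, 26.4 and 33.8 CPM in WT libraries. All KO libraries lay above all WT libraries, with WT_341 close below. The log2 change was the largest positive one of the family, 0.47 ± 0.16 (SE, 95% interval 0.09 to 0.85), and did not pass (adjusted p = 0.0586, edgeR). It did pass in 6 of 13 alternatives, among them DESeq2 (adjusted p = 0.0275), limma-voom (0.0439) and the fit without WT_341 (log2 change 0.64, adjusted p = 0.00429). E2f8, its partner in shutting down S phase genes, had 172, 176 and 184 CPM in KO libraries, against 185, 153 and 171 CPM in WT libraries. These ranges overlapped, and the 95% interval of the E2f8 log2 change was -0.13 to 0.27. E2f7 lies at chr10:110745439-110787384 (forward strand) and E2f8 at chr7:48866429-48881596 (reverse strand).

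None of the pocket protein genes passed. Rb1, the retinoblastoma gene, had 127, 115 and 117 CPM in KO libraries, against 125, 88.3 and 93.5 CPM in WT libraries. As for E2f2 and E2f7, WT_341 was the library nearest to the KO values, and the log2 change of 0.22 ± 0.13 (adjusted p = 0.217, edgeR) became 0.38 without it (adjusted p = 0.00526). Rbl1, which encodes p107, had 162, 166 and 156 CPM in KO libraries, against 190.4, 169.9 and 170.2 CPM in WT libraries. Rbl2, which encodes the quiescence-linked p130, had 104, 103 and 103 CPM in KO libraries, against 98.1, 90.7 and 92.1 CPM in WT libraries. Both sets of libraries did not overlap between genotypes, Rbl1 below and Rbl2 above WT, but neither change passed: the log2 change was -0.13 ± 0.07 for Rbl1 (adjusted p = 0.185) and 0.14 ± 0.07 for Rbl2 (adjusted p = 0.121, edgeR). Rbl2 passed with upper-quartile scaling (0.28), library totals only (0.24) and a stricter filter, 1 CPM or more in 3 libraries (0.22), and Rbl1 was at -0.00070 with upper-quartile scaling. Rb1 lies at chr14:73183673-73325822 (reverse strand), Rbl1 at chr2:157145893-157204534 (reverse strand) and Rbl2 at chr8:91070057-91123844 (forward strand).

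Tfdp1 was the most abundant transcript of the family and did not pass. It had 419.7, 426 and 382 CPM in KO libraries, against 398, 416 and 399 CPM in WT libraries. The genotypes overlapped, and the 95% interval of the log2 change was -0.16 to 0.20, or 0.892-fold to 1.15-fold. Tfdp1 lies at chr8:13338751-13378448 on the forward strand.

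**Figure D2:**
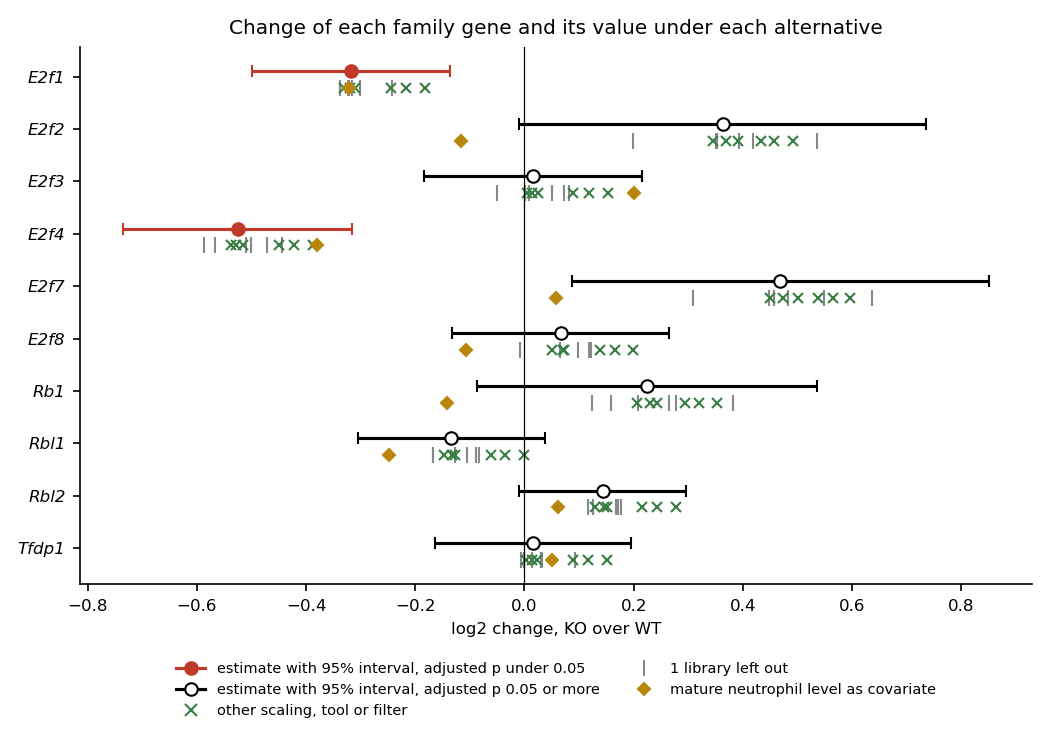
Log2 change, KO over WT (horizontal axis), of each family gene with its 95% interval, and below it the values with other scalings, tools or filters (crosses), with 1 library left out (bars) and with the neutrophil covariate (diamonds). E2f1 and E2f4 stay negative throughout, and the diamond of E2f2, E2f7 and Rb1 lies far to the left of the estimate.

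Levels can be set beside each other between genes only per length, and the following means are TMM-scaled CPM per kilobase of annotated exon (GENCODE M21). In KO libraries the order was Tfdp1 (111), E2f2 (32.9), E2f8 (32.6), Rbl1 (26.9), E2f4 (23.3), Rb1 (19.9), Rbl2 (13.7), E2f1 (11.8), E2f3 (10.3) and E2f7 (5.23). In WT libraries it was Tfdp1 (110.2), E2f4 (33.6), E2f8 (31.1), Rbl1 (29.5), E2f2 (25.6), Rb1 (17.0), E2f1 (14.7), Rbl2 (12.4), E2f3 (10.2) and E2f7 (3.78). Neighbours whose library ranges overlapped were E2f2 and E2f8 in KO libraries, and in WT libraries each neighbouring pair from E2f4 down to E2f1. E2f4 had rank 5 in KO and rank 2 in WT libraries, while E2f2 had rank 2 in KO and rank 5 in WT libraries. Of the summed E2F level per kilobase over the 6 E2F genes, E2f4 made up 20.1 ± 1.28% in KO and 28.4 ± 3.36% in WT libraries, E2f2 28.3 ± 2.01% in KO and 21.3 ± 3.76% in WT libraries, and E2f1 10.2 ± 0.357% in KO and 12.4 ± 0.578% in WT libraries (SD, n = 3 each). The activators E2f1, E2f2 and E2f3 together held 45.4 to 48.8% in KO and 40.6 to 44.5% in WT libraries. Of these, only E2f2, whose CPM did not pass between genotypes, had a larger share in every KO library. The share of E2f1 was smaller, and that of E2f3 overlapped. The shares of E2f7 with E2f8 were 32.0 to 33.1% in KO and 27.9 to 30.7% in WT libraries, and neither gene passed in CPM. Shares add up to a fixed total, so smaller shares of E2f4 and E2f1 bring larger shares elsewhere.

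A ratio of counts within a library does not depend on how libraries are scaled to each other, and 4 such ratios were compared. The log2 ratio of Rbl1 to Rbl2 was 0.63, 0.68 and 0.61 in KO libraries, against 0.96, 0.91 and 0.89 in WT libraries. Relative to p130 transcripts, p107 transcripts were thus lower in every KO library, with a difference of -0.28 (KO minus WT), or 0.825-fold. The log2 ratio of E2f8 to E2f7 was 1.91 ± 0.06 in KO and 2.34 ± 0.20 in WT libraries, that of Rb1 to E2f1 was 1.68 ± 0.15 in KO and 1.12 ± 0.26 in WT libraries, and that of E2f1 to E2f4 was -0.62 ± 0.07 in KO and -0.82 ± 0.11 in WT libraries (SD, n = 3 each). The genotypes did not overlap for any of the 4 ratios, and 53.9% of all genes tested singly did not overlap either. WT_341 was the WT library nearest to KO values for E2f8 to E2f7 (2.14), Rb1 to E2f1 (1.42) and E2f1 to E2f4 (-0.71). For Rbl1 to Rbl2 it was the farthest. Each ratio gave p = 0.10 in an exact two-sided permutation test, which is the smallest value that 3 against 3 libraries allow, and 0.10 after Benjamini-Hochberg adjustment over the 4. In 7 alternatives (no added count, or 1 library left out), the permutation p stayed at 0.10 for Rbl1 to Rbl2. For each of the other ratios it reached 0.20. E2f1 and E2f4 both fell in CPM, and their ratio moved toward E2f1 since E2f4 had the larger drop.

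The WT library with the most mature neutrophil RNA was WT_341, and the one with the least was WT_343. WT_341 was also highest in other marker lists. Its summed B cell and lymphoid markers had 188.8 CPM, against 32.5 in WT_343 and 66.6 in WT_344. Its summed erythroid markers had 754 CPM, against 533 in WT_343 and 452 in WT_344. Which of these traits goes with the family values was not tested. For E2f2, E2f7, E2f8, Rb1, Rbl1 and Rbl2, WT_341 held the highest WT value and WT_343 the lowest. For Rbl1, WT_343 and WT_344 were close (169.9 and 170.2 CPM), and Rbl1 lay lower in KO libraries. In contrast, E2f3, E2f4 and Tfdp1 were lowest in WT_341 and highest in WT_343, with Tfdp1 close in WT_341 and WT_344 (398 and 399 CPM). The mean log2 CPM of the mature neutrophil markers then entered the fit as a covariate. With it, the log2 change was -0.12 ± 0.08 for E2f2, 0.06 ± 0.15 for E2f7, -0.14 ± 0.10 for Rb1 and -0.11 ± 0.09 for E2f8 (SE), against 0.36, 0.47, 0.22 and 0.07 without it. E2f1 kept its value (-0.32 ± 0.11 with and -0.32 ± 0.08 without the covariate) but no longer passed (adjusted p = 0.105), and E2f4 was at -0.38 ± 0.11 (adjusted p = 0.0799, edgeR). In that fit 0 family genes passed, with 3 lower and 0 higher at an unadjusted p of 0.05, where DESeq2 was not run with the covariate. Rbl1 was at -0.25 ± 0.08 (adjusted p = 0.107), the third of these. The neutrophil marker level was higher in every KO library than in every WT library, so this fit cannot tell genotype and marker level apart. It was also less precise, with a median SE over all genes tested of 0.177, against 0.149 without the covariate. A call lost with the covariate is therefore given as a description. The part of maturing neutrophils in these changes was not tested.

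**Figure D3:**
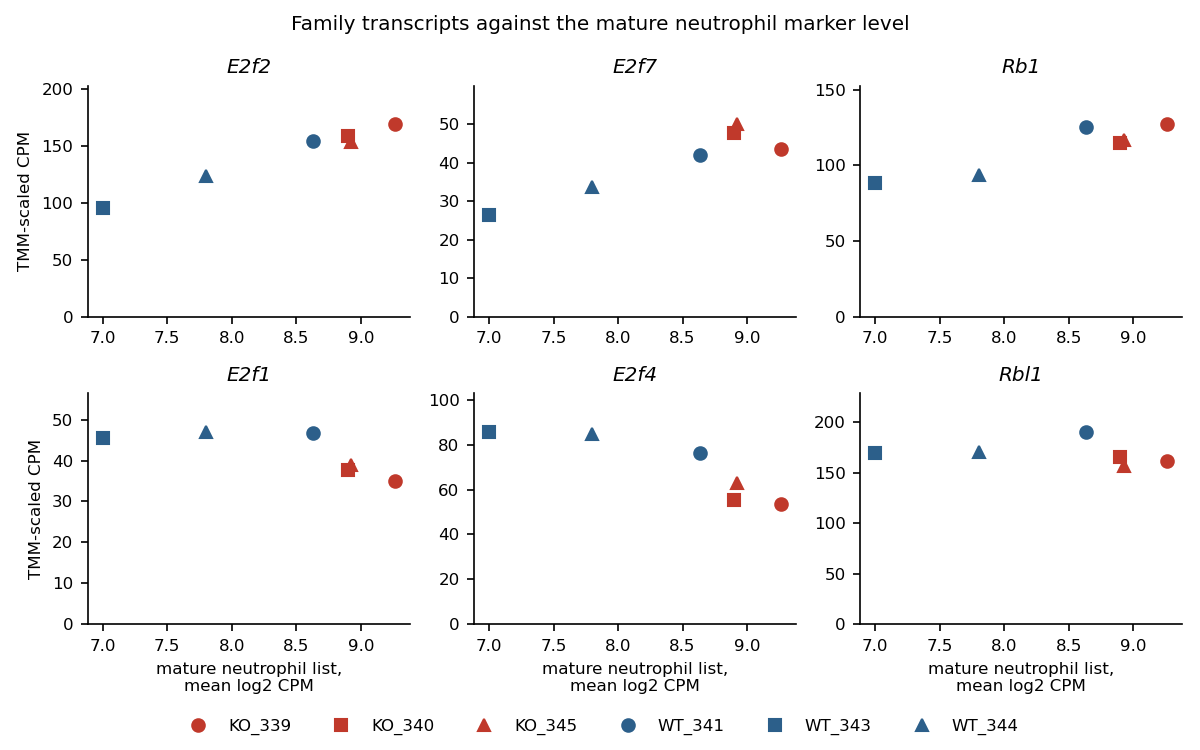
TMM-scaled CPM (vertical axes, from 0) of 6 family genes against the mean log2 CPM of 14 mature neutrophil markers (horizontal axes) in each KO and WT library. E2f2, E2f7, Rb1 and Rbl1 lie higher in WT_341 than in WT_343 and WT_344, whereas E2f1 lies between 45.4 and 47.0 CPM in all WT libraries whatever their marker level.

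The 3 other genes of the E2F and DP families were measured as context. E2f6, which encodes a repressor that works with Polycomb proteins and without pocket proteins, fell: it had 20.5, 20.1 and 20.1 CPM in KO libraries, against 24.8, 29.6 and 27.5 CPM in WT libraries. Its log2 change was -0.43 ± 0.10 (SE, adjusted p = 0.0146, edgeR), and the call was lost without KO_339 or KO_340 and with the neutrophil covariate (-0.25). E2f5, the other partner of p107 and p130, had 6.83 ± 0.434 CPM in KO and 6.44 ± 0.466 CPM in WT libraries and did not pass. Tfdp2, which encodes DP2, had 51.4 ± 2.63 CPM in KO and 51.4 ± 9.89 CPM in WT libraries.

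Around the family, the DREAM and MuvB list had 3 genes lower and 1 higher of 8 tested, with a median log2 change of -0.16. With upper-quartile scaling the split turned to 3 higher and 1 lower (median -0.02). Lin9, a MuvB core subunit, had 27.6 ± 1.90 CPM in KO and 36.3 ± 2.25 CPM in WT libraries. Mybl2, the B-MYB partner of MuvB and a classic E2F target, had 85.3 ± 3.99 CPM in KO and 115 ± 14.5 CPM in WT libraries. Rbbp4 fell by 0.27 on the log2 scale, a call that was lost under 9 of 13 alternatives. Mybl1, the A-MYB gene, rose 2.20-fold to 8.73 ± 0.442 CPM in KO libraries, against 3.97 ± 1.18 CPM in WT libraries. The calls of Lin9 and Mybl2 were each lost without KO_339 or KO_345, Lin9 also without KO_340 and with upper-quartile scaling, Mybl2 also without WT_344, and those of Mybl2 and Mybl1 with the neutrophil covariate (log2 changes -0.15 with and -0.43 without it for Mybl2, 0.64 and 1.14 for Mybl1).

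A list of 10 genes held cyclins and kinases that phosphorylate pocket proteins, and Cdc25a, whose phosphatase activates these kinases. Of the 10, 3 fell and 1 rose (median log2 change -0.15). The share called, 40.0%, was near the 35.9% of all genes tested. The cyclin D partners Cdk6 and Cdk4 fell, Cdk6 to 239 ± 22.2 CPM in KO libraries, against 342 ± 28.3 CPM in WT libraries, and Cdk4 to 190.1 ± 1.88 CPM in KO libraries, against 289.7 ± 56.3 CPM in WT libraries. Ccne1, the E-type cyclin gene, fell by 0.38 on the log2 scale, and Ccnd3, a D-type cyclin gene, rose 1.45-fold to 227 ± 4.16 CPM in KO libraries, against 156 ± 19.6 CPM in WT libraries. The call of Cdk4 was lost without KO_339 and that of Ccne1 whichever KO library was left out and with upper-quartile scaling, and all of these 4 calls were lost with the neutrophil covariate. The log2 change with and without it was -0.39 and -0.38 for Ccne1, -0.19 and -0.61 for Cdk4, -0.33 and -0.52 for Cdk6, and 0.34 and 0.54 for Ccnd3. Of 6 tested inhibitors of these kinases, 4 rose and 0 fell, namely Cdkn1a, Cdkn1b, Cdkn2b and Cdkn2d (6 and 0 at an unadjusted p of 0.05). Calls made up 66.7% of this list, all higher, against 35.9% of all genes tested, with 16.0% higher. DESeq2 also called 4 and 0, without Cdkn2b (adjusted p = 0.0566). Of these genes, Cdkn1a (log2 change 2.51) passed under all 13 alternatives. The other calls were lost with the neutrophil covariate and without KO_339, KO_340 or KO_345, those of Cdkn1b and Cdkn2b also without WT_343 and those of Cdkn1b and Cdkn2d also without WT_344. With and without the covariate, the log2 change was 2.25 and 1.96 for Cdkn2b, 0.15 and 0.43 for Cdkn1b, and 0.11 and 0.54 for Cdkn2d. Transcripts of Cdkn2b were rare, with 15 to 20 reads in KO and 2 to 8 reads in WT libraries. Cdkn2a, which encodes p16 and p19Arf, did not reach the filter.

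Of 12 corepressors that pocket proteins recruit, 5 fell and 0 rose (7 and 1 at an unadjusted p of 0.05, 6 and 1 with DESeq2, 5 and 1 with upper-quartile scaling), with a median log2 change of -0.25. The share called was 41.7%, all lower, against 35.9% of all genes tested, with 19.9% lower. Hdac1, a histone deacetylase gene, had 68.9 ± 4.26 CPM in KO and 103 ± 11.7 CPM in WT libraries, and Hdac3 had 52.2 ± 0.706 CPM in KO and 76.0 ± 6.17 CPM in WT libraries. The histone methyltransferase gene Suv39h1 fell to 0.725 times and the DNA methyltransferase gene Dnmt1 to 0.696 times its WT level. These 4 calls held with every library left out and every scaling, and those of Suv39h1 and Dnmt1 were lost with the neutrophil covariate (log2 change -0.33, adjusted p = 0.0543, and log2 change -0.38, adjusted p = 0.0587, edgeR). Of 8 genes of ubiquitin ligases and their partners that act on E2F or pocket proteins, 1 rose and 3 fell, but upper-quartile scaling gave 2 higher and 0 lower (1 lower at an unadjusted p of 0.05). Mdm2, a p53 target whose protein also binds RB1, had 213 ± 11.9 CPM in KO and 111 ± 4.68 CPM in WT libraries, and the falls of Usp7, Cks1b and Cdc20 (log2 changes -0.33, -0.34 and -0.23) were each lost without KO_339, KO_340, KO_345 or WT_344, and with upper-quartile scaling. They were also lost with the neutrophil covariate (-0.23, -0.03 and -0.14), and those of Cks1b and Cdc20 with library totals, the 1 CPM filter and without WT_343, that of Cdc20 with limma-voom too.

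Most of the G1/S genes that E2F factors are known to switch on fell. Of 34 tested, 24 fell and 0 rose (25 and 0 at an unadjusted p of 0.05, 24 and 0 with DESeq2). That was 70.6% lower against 19.9% of all genes tested, with a median log2 change of -0.40. Leaving aside genes that also stand in another list, 22 of 30 fell. With upper-quartile scaling, 19 of the 34 fell and 0 rose (median -0.26), and with library totals 21 fell and 0 rose (median -0.29). The helicase subunit gene Mcm7 and the licensing factor gene Cdc6 had the smallest adjusted p (log2 changes -0.73 and -0.78), followed by Mcm10 (-0.67) and the thymidine kinase gene Tk1 (-0.65), and these 4 calls held under all 13 alternatives. The 10 genes of the list that were not called were Ccne2, Mcm5, Pcna, Tyms, Pold1, Rfc3, Orc1, Slbp, Cdc25a and Msh6. Their log2 changes ran from -0.31 for Orc1 to 0.03 for Tyms, with Pcna at -0.09, and only Cdc25a (0.02) and Tyms lay above 0. These genes were named after their values were seen. Leaving out single libraries gave 15 to 27 falling genes, with 15 without KO_339 or KO_345 and 16 without WT_344, and the neutrophil covariate gave 12, with 0 higher in each.

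Of 10 tested apoptosis genes that E2F1 can activate, 5 rose and 2 fell, or 70.0% called against 35.9% of all genes tested (5 and 1 with upper-quartile scaling). Bbc3 (PUMA) rose 4.32-fold and Trp53inp1 3.06-fold, and both are also p53 targets. Bid and Casp8 fell to 0.644 and 0.805 times their WT levels, and both calls were lost with the neutrophil covariate (log2 changes -0.40 with and -0.63 without it for Bid, -0.29 and -0.31 for Casp8), that of Casp8 also without KO_339 and with upper-quartile scaling. Trp73, an E2F1 target of the p53 family, did not reach the filter.

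**Figure D4:**
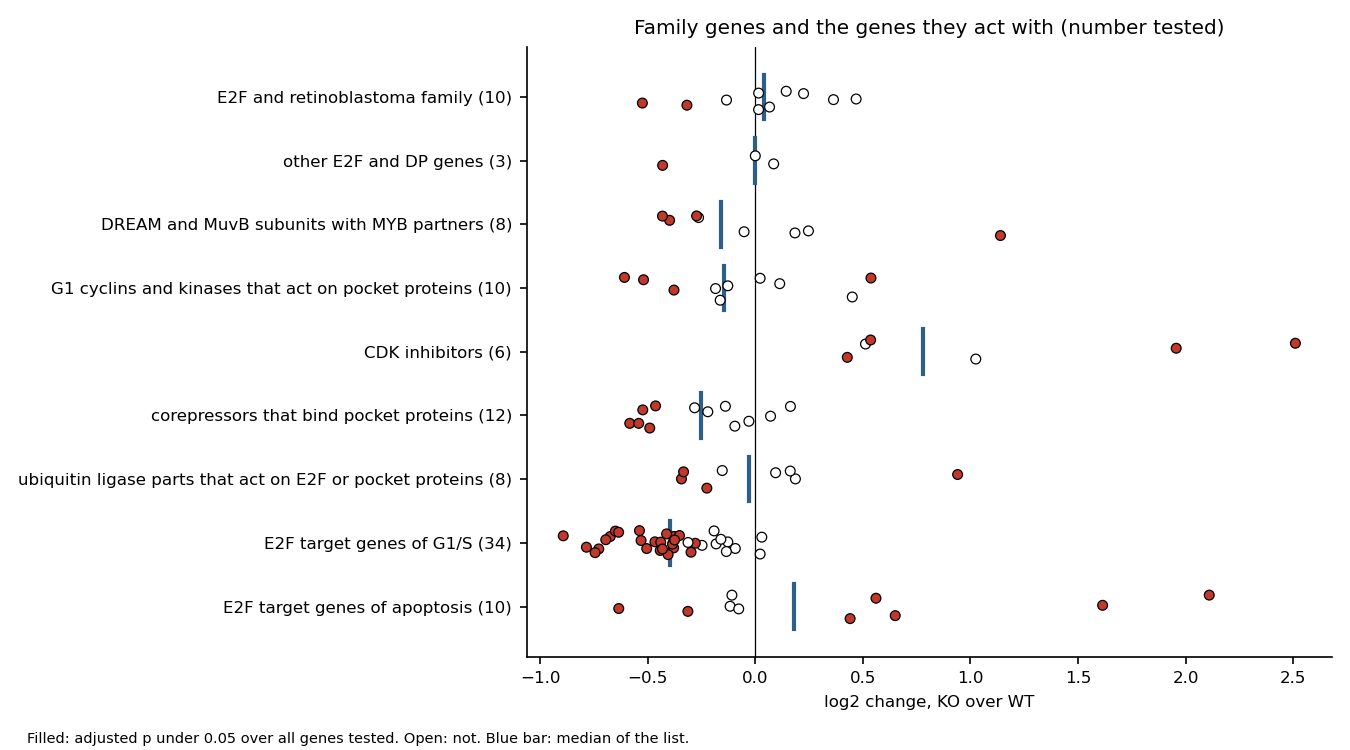
Log2 change, KO over WT (horizontal axis), of each tested gene of the family and of 8 lists of genes that act with it (rows, number tested in brackets). Filled points passed an adjusted p of 0.05 and blue bars are medians: the family median lies at 0.04, that of the G1/S targets at -0.40 and that of the kinase inhibitors at 0.78.

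E2F-type words were then counted in the promoter windows of the family. RefSeq windows were at hand for 8 of the 10 genes, all but E2f4 and Rb1. A word of 7 letters was found in 6 of these, namely E2f2, E2f3, E2f7, E2f8, Rbl1 and Tfdp1, against 17.9% of the 11405 tested genes with a window and 9.57% of all 32851 windows. The longer form with 1 more T in front (TTTCCCGC, or else TTTCGCGC, also TTTGCCGC, and last TTTGGCGC), which contains the 7-letter word, was found in E2f2, E2f3, E2f7, Rbl1 and Tfdp1, against 4.26% of tested genes and 2.26% of all windows. In Rbl1 it stood 18 bases before the start on the strand of the gene, and in Tfdp1 43 bases before the start on the opposite strand. The word TTTGAA of the cell cycle homology region (CHR), through which DREAM binds, was found in windows of E2f2 (at its other start), E2f3, E2f8 and Rbl2, against 14.7% of tested genes and 17.9% of all windows. The E2f1 window held none of these words, and its RefSeq start lies 466 bases inside the GENCODE gene. None of the 6 genes with a 7-letter word passed the test between genotypes, and their log2 changes ran from -0.13 for Rbl1 to 0.47 for E2f7. Of all tested genes with a window, 26.5% of the 2041 with a 7-letter word were lower in KO libraries and 12.3% higher, against 19.9% and 16.7% of the 9364 without one. Among the G1/S targets, 19 of 28 with a window held a 7-letter word, and the median log2 change was -0.39 with and -0.38 without it (13 of 19 and 6 of 9 lower).

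**Figure D5:**
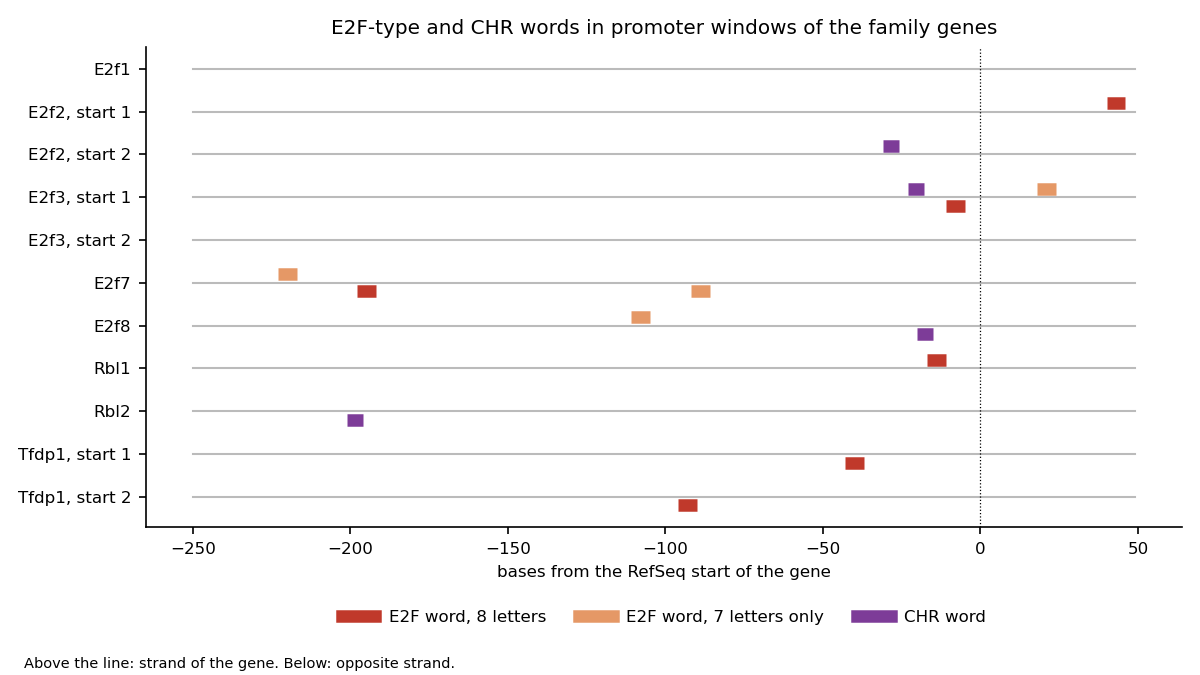
Positions of E2F-type and CHR words (horizontal axis, bases from the RefSeq start) in the 11 promoter windows of 8 family genes, with alternative starts in rows of their own. Words above a line are on the strand of the gene and those below on the opposite strand: E2f7 holds 3 E2F-type words, and E2f1 holds none.

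Some family genes overlap other genes in the annotation, and no source states whether reads were counted by strand. Rb1 shares exonic bases with Rcbtb2 and Lpar6 on the opposite strand, and Rbl2 with Aktip and Gm45464. Rcbtb2 had 41.7 ± 2.73 CPM in KO and 37.0 ± 1.65 CPM in WT libraries, Lpar6 31.5 ± 4.95 CPM in KO and 28.5 ± 8.14 CPM in WT libraries, and Aktip 12.8 ± 0.981 CPM in KO and 11.6 ± 0.153 CPM in WT libraries, and none of these 3 passed. E2f8 overlaps Gm2788 and E2f7 overlaps 1700020G17Rik by at most 336 and 86 bases of a single exon, while E2f1, E2f2, E2f4 and Tfdp1 overlap no annotated gene.

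Over the 6 libraries, the genes whose log2 CPM was most like that of E2f1, of 10186 with a mean of at least 5 CPM, were Pnpla2, a lipase gene (Pearson r = 0.997), Rhot2, which encodes a mitochondrial GTPase (0.997), and Ylpm1 (0.996). Those most like Rb1 were Mcemp1, a membrane protein gene of mast and myeloid cells (0.994), Znfx1 (0.993) and Gpcpd1 (0.991). With 6 points from 2 genotypes, many genes reach such values, and they are given as a description only. Pnpla2 fell by 0.53 on the log2 scale and Ylpm1 by 0.44, while Mcemp1 (0.46) did not pass.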

How the data were processed

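Messenger RNA of Kit-sorted bone marrow cells was sequenced in 3 Ints11 KO and 3 WT mice as paired reads of 75 bp, from a strand-specific kit per the labels' protocols. The authors deposited raw read counts per gene symbol. The submitters' processing notes name FastQC, Trimmomatic, STAR, HTSeq and mm10; no version, annotation release, strand setting or treatment of multi-mapped reads is stated. Separate mice were used, and no column belonged to other samples.

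The counts then went through edgeR 4.0.16 under R 4.3.3 (filterByExpr at a minimum count of 10 and total of 15, TMM, robust glmQLFit, glmQLFTest; Benjamini-Hochberg over all genes tested, threshold 0.05) and the fit was checked on simulated data. Intervals use the SE and degrees of freedom of that fit. At totals of 124074531 to 166860739, the counting error of a family gene was at most 1.55% of its count in any library, which covers counting only. Alternatives used upper-quartile factors, library totals, DESeq2 1.42.0, limma-voom (limma 3.58.1), other filters, single libraries left out and a neutrophil covariate (mean log2 CPM, prior count 2). Ratios were log2 of counts plus 0.5. Exon lengths and positions came from GENCODE M21 (GRCm38, the assembly of mm10), promoter windows from RefSeq.

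The members and lists were chosen with earlier results of these data known. Named genes are all members, the other E2F and DP genes, up to 4 genes of each further list with the smallest adjusted p, and for E2f1 and Rb1 the 3 most like genes. The promoter words were chosen after the values were seen.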

Additional observations from a re-analysis of the deposited data

How the results depend on the processing

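All 13 alternatives kept the direction of E2f1, E2f4, E2f7, Rbl1 and Rbl2, and their threshold side only for Rbl1. The family count of 2 became 4 with the filter of 1 CPM in 3 libraries, 0 with the neutrophil covariate and 1 to 5 with single libraries left out. With the covariate, 1201 genes were called of 5659 without it, 19 of 51 in the other lists and 12 of 24 G1/S targets. Leaving out single libraries gave 2302 to 7879 genes, 28 to 60 in the other lists and 15 to 27 G1/S targets. E2f1 lost its call with upper-quartile scaling (-0.18), library totals (-0.22) and the covariate (-0.32), and ran from -0.34 to -0.24 with libraries left out. E2f4 lost its call with the covariate (-0.38). E2f7 passed with upper-quartile scaling (0.60), library totals (0.56), DESeq2 (0.47), limma-voom (0.50) and the 1 CPM filter (0.54), and ran from 0.31 to 0.64 with libraries left out. Rbl2 passed with upper-quartile scaling (0.28), library totals (0.24) and the 1 CPM filter (0.22). With libraries left out, E2f2 ran from 0.20 to 0.54, Rb1 from 0.12 to 0.38, E2f3 from -0.050 to 0.081, E2f8 from -0.0082 to 0.12 and Tfdp1 from -0.0066 to 0.093, with -0.0011 without WT_344. Signs turned with the covariate for E2f2 (-0.12), E2f8 (-0.11), Rb1 (-0.14), E2f5 (-0.020) and Tfdp2 (-0.36). Tfdp2 also turned without the filter (-0.017) and ran from -0.10 to 0.16 with libraries left out. The causes were not tested.

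Upper-quartile scaling moved the median log2 change of all genes to 0.15 and library totals to 0.11, against 0.01, and calls higher in KO made up 64.2% and 58.8% of all calls, against 44.5%. With 1 library left out, a genotype has 2 libraries and fewer degrees of freedom. No paired analysis was possible because the mouse numbers differ between genotypes. Depth did not limit the family genes, whose counting error was at most 1.55% of a count in any library.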
